A study of Mus musculus with 79 samples.

Results

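Wild-type (WT) mouse embryonic fibroblasts were followed after a pulse of dexamethasone, and the data described here are the change between the last and the first time analysed. The members are the 6 libraries of the WT time course collected at circadian time 32 h (CT32, 3 libraries) and at CT12 (3 libraries), of 79 libraries in the series. They were chosen by their label alone, and the 12 WT libraries of CT16, CT20, CT24 and CT28 were used to see whether a change between the ends ran steadily or turned back on the way. All WT cells were embryonic fibroblasts of a C57BL/6J background, grown in serum, brought to confluence and given 100 nM dexamethasone for 1 h. Circadian time counts the hours after that pulse, and every group carried it, so no library here is without glucocorticoid. The other cultures set beside them had the same strain, pulse and kit: fibroblast lines in which CRISPR-Cas9 had disrupted Ahcy (labelled AHCY null, called KO here), at CT32 and CT12, and fibroblasts given the solvent dimethyl sulfoxide (DMSO), at CT24 and CT12. Each group held 3 libraries, called biological replicates by the labels. No label says how many clones stand behind the KO lines or whether the replicates were separate cultures, so p-values measure the spread between these libraries only. Ahcy encodes adenosylhomocysteinase, the enzyme that clears S-adenosylhomocysteine, and the series asks how it bears on the circadian clock.

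Dexamethasone activates the glucocorticoid receptor, a nuclear receptor that binds DNA and switches target genes on and off, and a short pulse of it brings the clocks of cultured fibroblasts into step. The clock is a feedback loop in which the activators CLOCK and BMAL1 (gene Arntl) drive their own repressors of the PER, CRY and REV-ERB families, so its mRNAs rise and fall about once a day. Fibroblasts that have filled the dish slow their division through contact inhibition, draw down the medium and its growth factors, and lay down matrix. A comparison of 2 times 20 h apart takes in all of these: time since the pulse, age of the culture and phase of the clock changed together and cannot be told apart from the end times alone.

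The values were transcript abundances scaled to a common total in each library (TPM), with sums between 970075 and 980677 and with 12030 to 12735 genes at 1 or more in each WT library. Read depth is unknown. Ahcy was read at 139.9, 134 and 131 TPM in the WT libraries of CT32 and at 214, 206 and 203 TPM in those of CT12, against 2.61, 2.21 and 3.16 TPM in the KO libraries of CT32 and 3.25, 2.58 and 3.62 TPM in those of CT12, as their labels say. The 16 fibroblast markers summed to between 13311 and 13860.0 TPM at CT32 and to between 10401 and 10717 TPM at CT12. The sum of the 15 macrophage markers in the table was 36.6 to 38.5 TPM at CT32 and 27.9 to 29.8 TPM at CT12, nearly all of it from Cd14, and Emr1, C1qa, C1qb, C1qc and Tyrobp were listed at 0 in all 6 libraries. Endothelial markers summed to between 267 and 278 TPM at CT32 and to between 144 and 165 TPM at CT12; Ly6c1, which fibroblasts also express, made up most of it, and Tie1 was listed at 0. Neural markers summed to 27.1 to 29.7 TPM at CT32 and 30.9 to 33.4 TPM at CT12 with Rbfox3, Olig1 and Olig2 at 0, epithelial markers to 17.0 to 17.8 TPM at CT32 and 21.1 to 22 TPM at CT12, and blood markers to 0.968 to 2.19 TPM at CT32 and 0.735 to 1.23 TPM at CT12 with Hbb-b1, Beta-s, Cd3e and Cd3g at 0. Their part in the results was not tested. At CT20 the 17 skeletal muscle fibre markers summed to between 576 and 763 TPM, against 48.0 to 51.2 TPM at CT32 and 46.6 to 47.7 TPM at CT12, with 12 of the 17 averaging under 1 TPM at the ends. The main counts of the order, the slope and the times beyond both ends are therefore also given without CT20. Malat1, a nuclear RNA with a WT median of 282 TPM, exceeded that median more than 2-fold in a single library of CT16 (1315 TPM), of CT24 (1040.2 TPM) and of CT32 (1224 TPM). Each of these was replicate 2 of its time. They scored -32.1, -27.3 and -26.8 on the second principal component (10% of the variance), and the other WT libraries scored -6.33 or more. In bulk RNA, fewer cells of a kind and less RNA per cell cannot be told apart.

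The change between the ends was broad. Of 12969 genes tested with limma on log2(TPM + 1), 4365 were higher and 4160 lower at CT32 than at CT12 at a Benjamini-Hochberg adjusted p under 0.05, which is 65.7% of the genes tested (33.7% higher and 32.1% lower). Most changes were small: 296 genes were at least 2-fold higher and 320 at least 2-fold lower. In 9733 genes (75% of those tested) the 3 CT32 libraries and the 3 CT12 libraries did not overlap. Over all genes tested the median log2 change was 0.036 after scaling by median ratios. With the values as deposited that median was 0.12 and 61.9% of the calls were higher, against 51.2% after scaling, so the split between the directions depends on scaling.

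The 4 intermediate means show how much of this ran steadily. In 835 called genes (404 higher and 431 lower, or 521 and 305 with the values as deposited) the 6 means ran in strict order from CT12 to CT32. Another 4943 had all 4 intermediate means between the ends but not in order, and 2747 had at least 1 intermediate mean outside the ends (1500 of the higher genes and 1247 of the lower genes). Over all genes tested, called or not, 6.54% were in order, 40.5% lay between and 52.9% lay outside. The break in the order mostly fell at the same step: 5178 called genes took exactly 1 step against their change, and in 4000 of them (77.2%) that was the step at CT20 to CT24. The first principal component, with 19% of the variance, shows the same turn: libraries scored −32.8 to −30.1 at CT12, −15.2 to −12.8 at CT16, 4.85 to 8.26 at CT20, −7.44 to 2.48 at CT24, 7.30 to 11.5 at CT28 and 27.4 to 36 at CT32. CT20 thus lay further along than CT24. Leaving out CT20 raised the number of called genes in order to 3791, and leaving out CT24 raised it to 3128. With a time left out there are fewer steps to meet, so a rise is set in part by the rule. No such count was made without CT16 or without CT28. Without the 3 libraries of high Malat1, 8155 genes were called between the ends and 645 of them were in order.

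**Figure D1:**
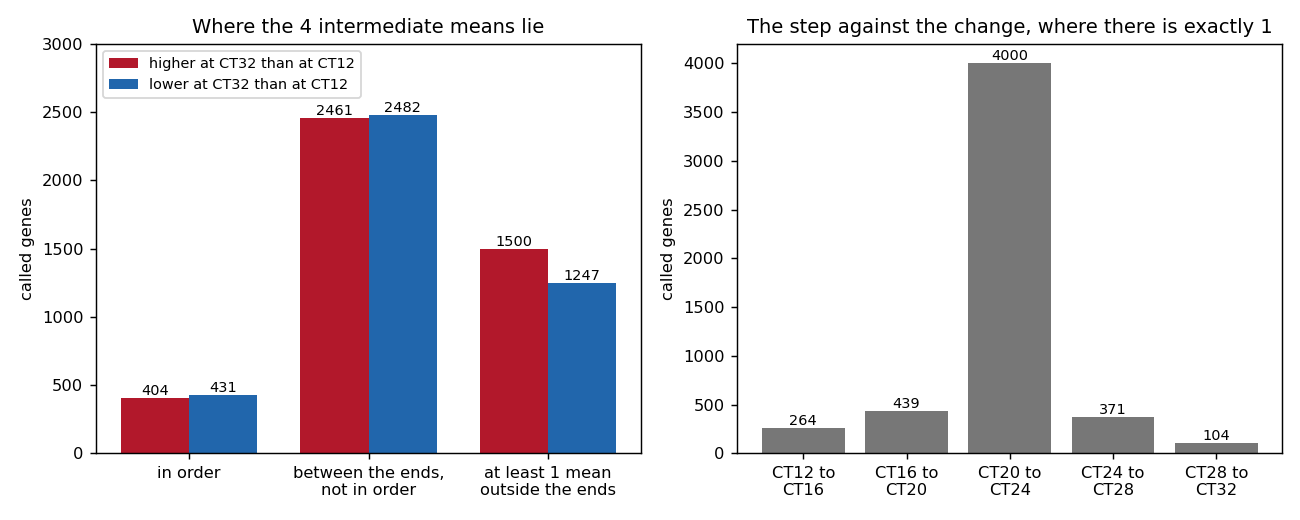
Left, called genes by where the means of CT16, CT20, CT24 and CT28 lie, for genes higher (red) and lower (blue) at CT32 than at CT12. Right, for the 5178 called genes with exactly 1 step against their change, the step at which it fell; CT20 to CT24 holds 4000 of them.

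The libraries between the ends were also compared with each other. Between CT28 and CT16, 30.8% of the tested genes were called (2002 higher, 15.4%, and 1993 lower, 15.4%). These times also differ in clock phase, so the calls can hold rhythm as well as steady change. Of the 8525 genes called between CT32 and CT12, 3581 were called in the same direction there, 51 in the opposite direction and 4893 not at all. Of the 835 genes in order, 549 were called in the same direction between CT28 and CT16 and 0 in the opposite direction; the order of the means fixes the sign of that difference, so the 0 is set by the rule. A slope over all 18 libraries fitted beside a 24 h cosine was called in 57.7% of genes (3758 rising, 29%, and 3722 falling, 28.7%; 4831 and 2846 with the values as deposited), and in 7601 genes without CT20. The CT12 and CT32 libraries enter this slope, so it is no separate check of the change between the ends. The times span 20 h, less than a full 24 h cycle, so slope and cosine can be separated only in part. Slopes of at least 2-fold over the span were called in 634 rising and 683 falling genes, against 296 and 320 genes between the ends. Step by step, the fewest calls were made for CT28 against CT24 and for CT24 against CT20. They numbered 1537 higher (11.9%) and 1941 lower (15%) for CT16 against CT12, 1562 (12%) and 1540 (11.9%) for CT20 against CT16, 824 (6.35%) and 937 (7.22%) for CT24 against CT20, 635 (4.9%) and 682 (5.26%) for CT28 against CT24, and 1581 (12.2%) and 2101 (16.2%) for CT32 against CT28. Among the 616 genes changed at least 2-fold, the median share of the whole change reached was 29.0% at CT16, 58.2% at CT20, 44.0% at CT24 and 65.5% at CT28.

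Genes that rose in strict order included a small leucine-rich matrix proteoglycan, an interferon-inducible membrane protein and a Notch receptor. Ogn (osteoglycin, chr13:49608046-49624501 on GRCm38) was read at 275, 253 and 284 TPM at CT32 and 47.6, 46.8 and 46.2 TPM at CT12 (log2 change 2.41 ± 0.055 (SE), adjusted p = 7.09e-13). Its means ran 46.9, 73.5, 136, 139, 196 and 270.4 TPM from CT12 to CT32, and were almost equal at CT20 and CT24. Ifitm1 (chr7:140967221-140969825) had 118, 127 and 132 TPM at CT32 and 24.7, 20.9 and 23.8 TPM at CT12 (log2 change 2.30 ± 0.12 (SE), adjusted p = 3.87e-10). In both genes the lowest CT32 library lay far above the highest CT12 library. Tgm2, a transglutaminase that crosslinks proteins, averaged 75.1 ± 3.37 TPM at CT32 and 25.2 ± 0.744 TPM at CT12 (SD, n = 3 each; log2 change 1.44). Notch3 averaged 37.7 ± 2.67 TPM at CT32 and 12.7 ± 0.256 TPM at CT12 (log2 change 1.40). Ampd3 (AMP deaminase), Cbr2 (a carbonyl reductase), Mustn1 and Angptl7 rose by 1.48, 1.46, 1.45 and 1.44 on the log2 scale.

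Genes that fell in strict order were led by a gap junction gene and smooth muscle cytoskeleton genes. Gjb2 (connexin 26, chr14:57098600-57104702) was at 2.6, 3.22 and 2.89 TPM at CT32 and 16.6, 18.6 and 18.7 TPM at CT12 (log2 change -2.37 ± 0.11 (SE), adjusted p = 1.15e-10). Tagln (transgelin, an actin-binding protein, chr9:45929619-45936058) was at 87.9, 86.9 and 87.9 TPM at CT32 and 314, 323 and 338 TPM at CT12 (log2 change -1.98 ± 0.043 (SE), adjusted p = 6.85e-13). Most of the fall in Tagln came early: its means from CT12 to CT32 were 325, 209, 132, 107, 93 and 87.5 TPM. Acta2, alpha smooth muscle actin, is in order by its scaled means alone, since its deposited mean at CT32 was above that at CT28. It averaged 311 ± 17.3 TPM at CT32 and 765 ± 15.2 TPM at CT12 (log2 change -1.39), and its deposited means from CT20 to CT32 were 350.3, 320.3, 304 and 311 TPM. Gap43 (a growth-associated protein), Hmga1 (a chromatin architecture protein of growing cells) and the ribosome assembly genes Mphosph10, Pno1 and Gnl3 fell by 1.32, 1.29, 1.22, 1.22 and 1.21 on the log2 scale.

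**Figure D2:**
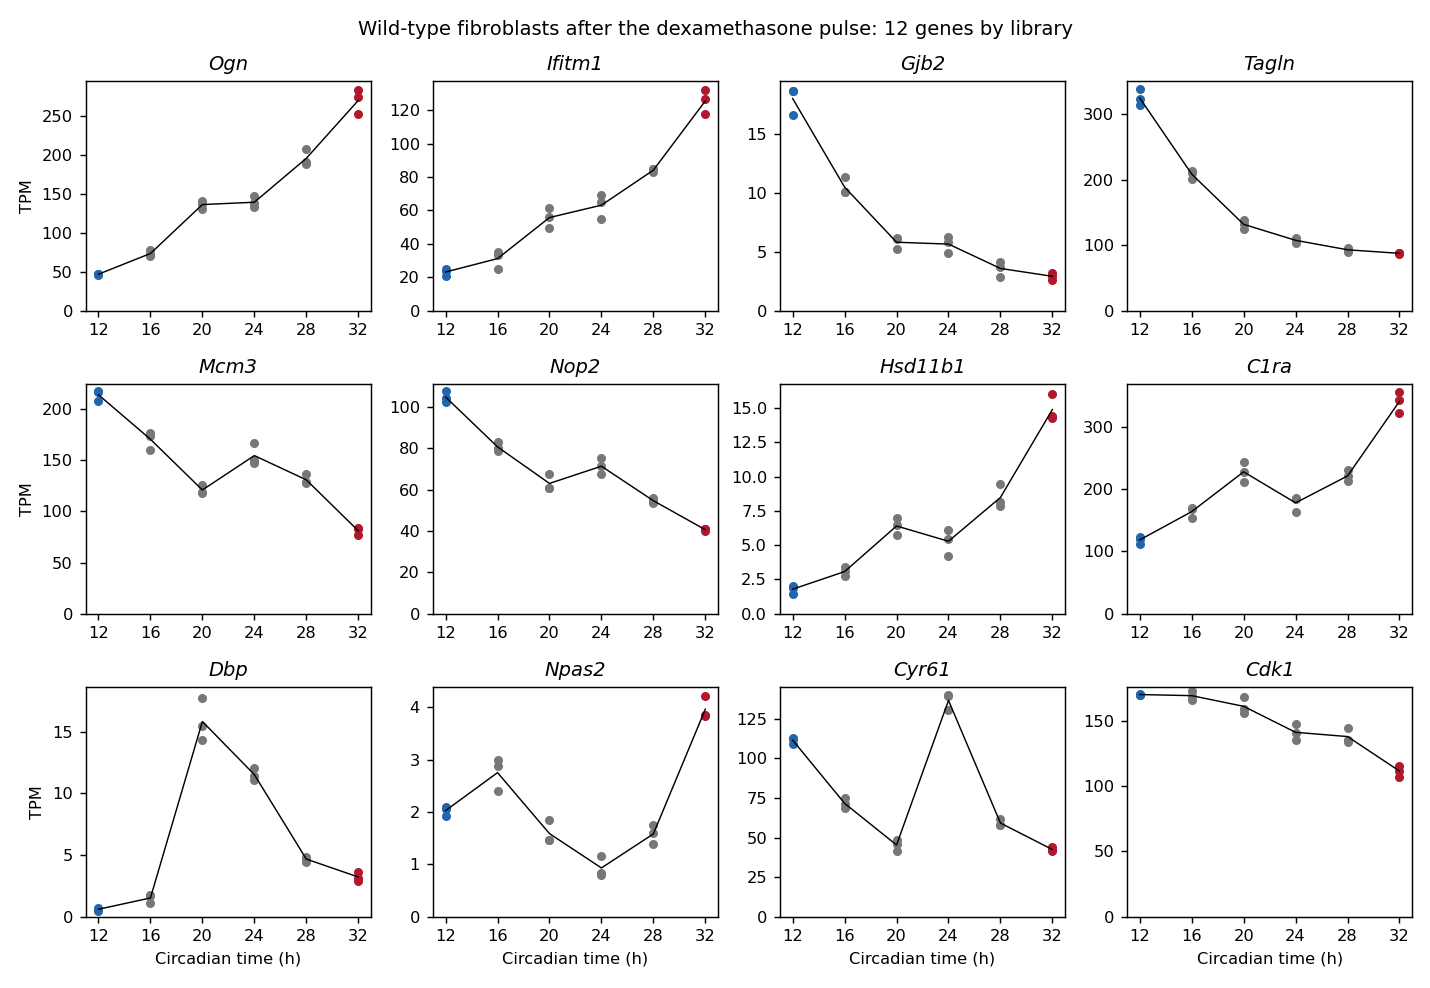
TPM of 12 genes in each WT library against circadian time; red points are CT32, blue points CT12, grey points the times between, and lines join the means of 3 libraries. Ogn, Ifitm1, Gjb2 and Tagln run in order, Mcm3 and Nop2 turn back at CT24, and Dbp and Npas2 pass outside the values at both ends.

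Genes of DNA replication fell together. All 32 tested genes of the DNA replication and G1/S list were lower at CT32 than at CT12, by a median of 1.07 on the log2 scale, against a median log2 change of 0.036 and 32.1% lower calls over all genes. Mcm3, a subunit of the replicative helicase, was at 76.5, 83.5 and 83.2 TPM at CT32 and 208, 216 and 217 TPM at CT12 (log2 change -1.49 ± 0.044 (SE), adjusted p = 2.91e-12). Mcm2, another subunit, was at 62.4, 65 and 64.6 TPM at CT32 and 156, 158 and 159 TPM at CT12 (log2 change -1.39 ± 0.034 (SE), adjusted p = 8.41e-13). Neither gene had overlapping ends, as was so in 75% of all genes tested. Both stood higher at CT24 than at CT20 (121 and 155 TPM for Mcm3). The sliding clamp Pcna averaged 196 ± 8.18 TPM at CT32 and 467 ± 3.2 TPM at CT12, and the ribonucleotide reductase subunit Rrm2 averaged 79.9 ± 5.76 TPM at CT32 and 203 ± 3.99 TPM at CT12. Of the 32 genes 2 were in order and 29 lay between the ends, and without CT20 28 were in order and 3 between; the medians from CT16 to CT32 were -0.30, -0.69, -0.45, -0.63 and -1.07 relative to CT12. Between CT28 and CT16, 28 of them were also lower, against 15.4% of all genes. Histone chaperone and chromatin assembly genes fell in 11 of 12 (median -0.88), among them Chaf1b of the replication-coupled assembly factor (log2 change -1.36), Asf1b (-1.18) and the histone variant gene H2afz (-0.89).

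Mitotic genes fell too, with list medians near 0 until CT20. In the mitosis and G2/M list 24 of 30 genes were lower at CT32 and 0 higher, with a median of -0.50. Over all genes 32.1% were lower and 33.7% higher. Their medians stood at 0.035 at CT16 and 0.045 at CT20 relative to CT12, then at -0.20 at CT24 and -0.29 at CT28. Cdk1, the kinase that drives entry into mitosis, was at 107, 112 and 116 TPM at CT32 and 170.0, 170.3 and 170.0 TPM at CT12 (log2 change -0.70 ± 0.04 (SE), adjusted p = 1.01e-09), with means of 169, 161, 141 and 138 TPM from CT16 to CT28. Birc5 (survivin) averaged 117 ± 5.61 TPM at CT32 and 185 ± 3.87 TPM at CT12 (log2 change -0.76), and both genes were in order. In 10 of the 30 genes the test placed an intermediate time beyond both ends (5.66% over all genes), in each case above them and in each case including CT20, and in a fit without CT20 there were 9 (4.46% over all genes): Top2a averaged 311, 378, 372, 302, 321 and 292 TPM from CT12 to CT32, and Mki67, the proliferation marker, averaged 106, 143, 130.1, 112, 112 and 100.1 TPM. Mki67 itself was not called between the ends (log2 change -0.19, adjusted p = 0.076).

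Genes that hold or release the G1 brake moved in both directions. Ccnd1, the growth-factor-dependent cyclin of G1, was at 62.1, 65.2 and 60.7 TPM at CT32 and 156, 172 and 163 TPM at CT12 (log2 change -1.47 ± 0.041 (SE), adjusted p = 2.36e-12). Cdkn1b, the cyclin-dependent kinase inhibitor p27, was at 89.8, 84.5 and 84.2 TPM at CT32 and 52.5, 53.1 and 52.8 TPM at CT12 (log2 change 0.60 ± 0.038 (SE), adjusted p = 3.05e-09). Of 18 genes on the cell cycle inhibitor and quiescence list 12 were higher and 3 lower, against 33.7% higher and 32.1% lower over all genes. The 3 lower ones were the cyclin genes Ccnd1 and Ccnd2 and the pocket protein gene Rbl1. Of these, the cyclins are known to push cells through G1. Ccng2, Foxo3, Foxo4, Cdkn2b and Rbl2 were among the higher, with log2 changes of 0.71, 0.63, 0.58, 0.81 and 0.41. Cdkn1a (p21) was not called (117 TPM at CT32 and 119 TPM at CT12).

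The promoters of the cell cycle genes are shown because genes of these lists moved together. Sequences are RefSeq promoters on GRCm38.p6, 250 bases before to 50 after a gene's start, and each is from the called list member with the smallest p whose promoter held the motif. Capitals mark the motif, searched on both strands. An E2F site (TTTGGCGC or TTTCCCGC) stood in 28.1% of the 32 promoters matched to 26 of the 32 replication genes and in 1.56% of all 32851 promoters. Mcm3 (chr1:20820263-20820562, minus strand) holds a pair of them after its start.
Mcm3: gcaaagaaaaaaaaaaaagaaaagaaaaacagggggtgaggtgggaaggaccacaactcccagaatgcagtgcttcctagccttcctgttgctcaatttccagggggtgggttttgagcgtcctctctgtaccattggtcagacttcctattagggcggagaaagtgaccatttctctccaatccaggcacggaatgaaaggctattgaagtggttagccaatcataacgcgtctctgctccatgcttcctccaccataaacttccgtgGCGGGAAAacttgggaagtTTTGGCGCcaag
The cell cycle homology region (CHR, TTTGAA) stood in 82.1% of 28 promoters of 25 mitosis genes and in 17.9% of all promoters, and the CCAAT box (CCAAT) stood in 82.1% and 37.4%. The CCAAT share is not particular to mitosis genes. It was 88.9% in 18 promoters of endoplasmic reticulum chaperone and unfolded protein genes and 78.9% in 19 cholesterol promoters, but 9.09% in 11 Wnt promoters. The Cdk1 promoter (chr10:69352863-69353162, minus strand) holds 2 CHR matches. 
Cdk1: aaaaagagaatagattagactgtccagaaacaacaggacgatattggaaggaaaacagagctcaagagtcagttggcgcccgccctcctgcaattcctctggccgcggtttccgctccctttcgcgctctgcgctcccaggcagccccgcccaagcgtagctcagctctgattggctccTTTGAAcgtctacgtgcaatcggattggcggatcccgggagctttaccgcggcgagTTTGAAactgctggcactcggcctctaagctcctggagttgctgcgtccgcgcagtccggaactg
A match is a run of letters and does not show that a factor bound there.

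Ribosome biogenesis showed the largest median change among the lists described here. All 25 of its tested genes were lower at CT32, by a median of 1.16 on the log2 scale, and 23 of them were also lower at CT28 than at CT16. The shares of lower calls over all genes were 32.1% and 15.4% in these comparisons. Nop2, an rRNA methyltransferase, was at 40.8, 39.9 and 41.1 TPM at CT32 and 102, 108 and 104 TPM at CT12 (log2 change -1.44 ± 0.035 (SE), adjusted p = 8.41e-13). Rrp12, a factor of ribosomal subunit maturation and export, was at 8.02, 8.06 and 8.2 TPM at CT32 and 29.3, 29.9 and 30.2 TPM at CT12 (log2 change -1.85 ± 0.054 (SE), adjusted p = 2.7e-12). Both fell well clear of the spread between libraries, and both had a higher mean at CT24 than at CT20 (62.9 TPM at CT20 and 71.3 TPM at CT24 for Nop2). Myc, the transcription factor known to drive ribosome synthesis genes through E-boxes, was at 49.3, 51.6 and 50.8 TPM at CT32 and 97.3, 100.0 and 100.0 TPM at CT12 (log2 change -1.05 ± 0.032 (SE), adjusted p = 3.28e-12), with means of 89.7, 63.8, 87.2 and 70.8 TPM from CT16 to CT28. Of the mRNAs of cytosolic ribosomal proteins, 2 of 32 were higher and 7 lower, with a median of -0.042. Both are smaller shares than the 33.7% higher and 32.1% lower over all genes. With the values as deposited 9 were higher and 5 lower (median 0.056), and with quantile normalization 6 and 3 (median 0.028). Reads of this family can be split between near-identical pseudogenes, so single members such as Rpl30 are uncertain.

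The E-box (CACGTG) stood in 22.7% of 22 promoters of 20 ribosome biogenesis genes and in 7.15% of all promoters. Across the lists this share ran from 0% of 18 proteasome promoters to 32.1% of 28 lysosome promoters. It was 22.7% in p53 targets too, so it is not particular to ribosome biogenesis. Nop2 (chr6:125131633-125131932, plus strand) is shown with its match.
Nop2: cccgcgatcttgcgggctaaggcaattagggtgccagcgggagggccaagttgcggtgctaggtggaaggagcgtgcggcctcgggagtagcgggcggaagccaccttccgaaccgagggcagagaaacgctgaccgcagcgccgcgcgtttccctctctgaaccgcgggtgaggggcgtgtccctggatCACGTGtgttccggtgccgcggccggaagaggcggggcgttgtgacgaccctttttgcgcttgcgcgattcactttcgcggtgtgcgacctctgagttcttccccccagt

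Chaperone and proteasome genes also fell. Over all genes 32.1% were lower and 33.7% higher. In the heat shock list 15 of 19 genes were lower and 1 higher (median -0.60). Ahsa1, an activator of HSP90, averaged 121 ± 2.33 TPM at CT32 and 233 ± 4.2 TPM at CT12 (log2 change -1.04 ± 0.033 (SE), adjusted p = 5.23e-12). Hspd1, the mitochondrial chaperonin, averaged 503 ± 35.9 TPM at CT32 and 1090.3 ± 37.4 TPM at CT12, and Hsph1 averaged 78.9 ± 2.57 TPM at CT32 and 142 ± 3.89 TPM at CT12. Proteasome subunits fell in 19 of 20 genes by a narrow range, with log2 changes between -0.73 and -0.13; Psmc5 of the regulatory particle was at 109.9, 107 and 109 TPM at CT32 and 169, 168 and 168 TPM at CT12. A heat shock element (TTC, GAA and TTC with 2 bases of any kind between neighbours) stood in 25% of 20 promoters of 15 heat shock genes and in 0.603% of all promoters, and Hsph1 (chr5:149636287-149636586, minus strand) is shown for it.
Hsph1: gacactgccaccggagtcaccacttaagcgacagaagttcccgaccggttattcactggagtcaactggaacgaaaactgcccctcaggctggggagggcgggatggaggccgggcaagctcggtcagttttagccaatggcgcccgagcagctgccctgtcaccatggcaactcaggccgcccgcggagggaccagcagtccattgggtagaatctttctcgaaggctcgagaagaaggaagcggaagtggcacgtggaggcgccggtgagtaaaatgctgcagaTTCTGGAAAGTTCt

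Biosynthetic genes fell at the level of amino acids, sterols and one-carbon units. Of 28 genes of the ATF4 and amino acid response 20 were lower and 4 higher, and 6 of the lower ones were in order; without CT20, 13 of the called genes were in order. Shmt2 and Mthfd2, which make one-carbon units in mitochondria, averaged 101 ± 3.45 and 27.1 ± 2.05 TPM at CT32 and 233 ± 1.93 and 59.5 ± 0.89 TPM at CT12. The serine synthesis genes Phgdh and Psat1 fell by 1.07 and 0.90 on the log2 scale, and Asns by 0.85. The 4 higher members were Ddit3, Vldlr, Ddit4 and Sesn2, which are known as stress or lipid uptake genes and not as amino acid enzymes (log2 changes 0.76, 0.52, 0.32 and 0.24). In the cholesterol list 20 of 24 genes were lower and 0 higher (median -0.56). Sqle, squalene epoxidase of sterol synthesis, was at 42.1, 47 and 48.1 TPM at CT32 and 72.4, 76.8 and 74.5 TPM at CT12 (log2 change -0.79 ± 0.039 (SE), adjusted p = 2.55e-10). In Sqle all CT32 libraries lay below all CT12 libraries, but the ends did not overlap in 75% of all genes tested. Fatty acid synthesis genes were lower in 10 and higher in 1 of 18, against 32.1% lower and 33.7% higher over all genes. Fasn averaged 64.1 ± 1.23 TPM at CT32 and 109 ± 3.12 TPM at CT12.

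The methionine cycle, in which Ahcy sits, was among the falling groups. Ahcy itself (chr2:155059310-155074497) fell by 0.71 on the log2 scale (SE 0.069, adjusted p = 3.18e-07), and its means ran 208, 191, 169, 182, 169 and 135 TPM from CT12 to CT32, with 1 step against at CT24. Of 13 tested genes of the cycle 10 were lower and 2 higher. Mat2a, which makes S-adenosylmethionine, averaged 106 ± 8.88 TPM at CT32 and 175 ± 3.71 TPM at CT12, Mtrr, which reactivates methionine synthase, averaged 7.05 ± 0.477 TPM at CT32 and 15 ± 1.46 TPM at CT12, and Mtap, of methionine salvage, averaged 67.4 ± 4.2 TPM at CT32 and 110.2 ± 2.91 TPM at CT12. Amd1, S-adenosylmethionine decarboxylase, has the near-identical copy Amd2 and its library values were uneven, so its log2 change of -2.42 ± 0.74 (SE) is uncertain. Nuclear-encoded respiratory chain genes were lower in 20 of 27 by a small median of -0.26, and with quantile normalization that count was 10, with 5 higher. Glycolysis and hypoxia genes split, with 7 higher and 16 lower of 27, against 33.7% higher and 32.1% lower over all genes. Hk2 averaged 24.9 ± 1.03 TPM at CT32 and 43 ± 1.25 TPM at CT12. The peptide hormone gene Adm averaged 69.4 ± 1.44 TPM at CT32 and 37.5 ± 1.47 TPM at CT12.

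**Figure D3:**
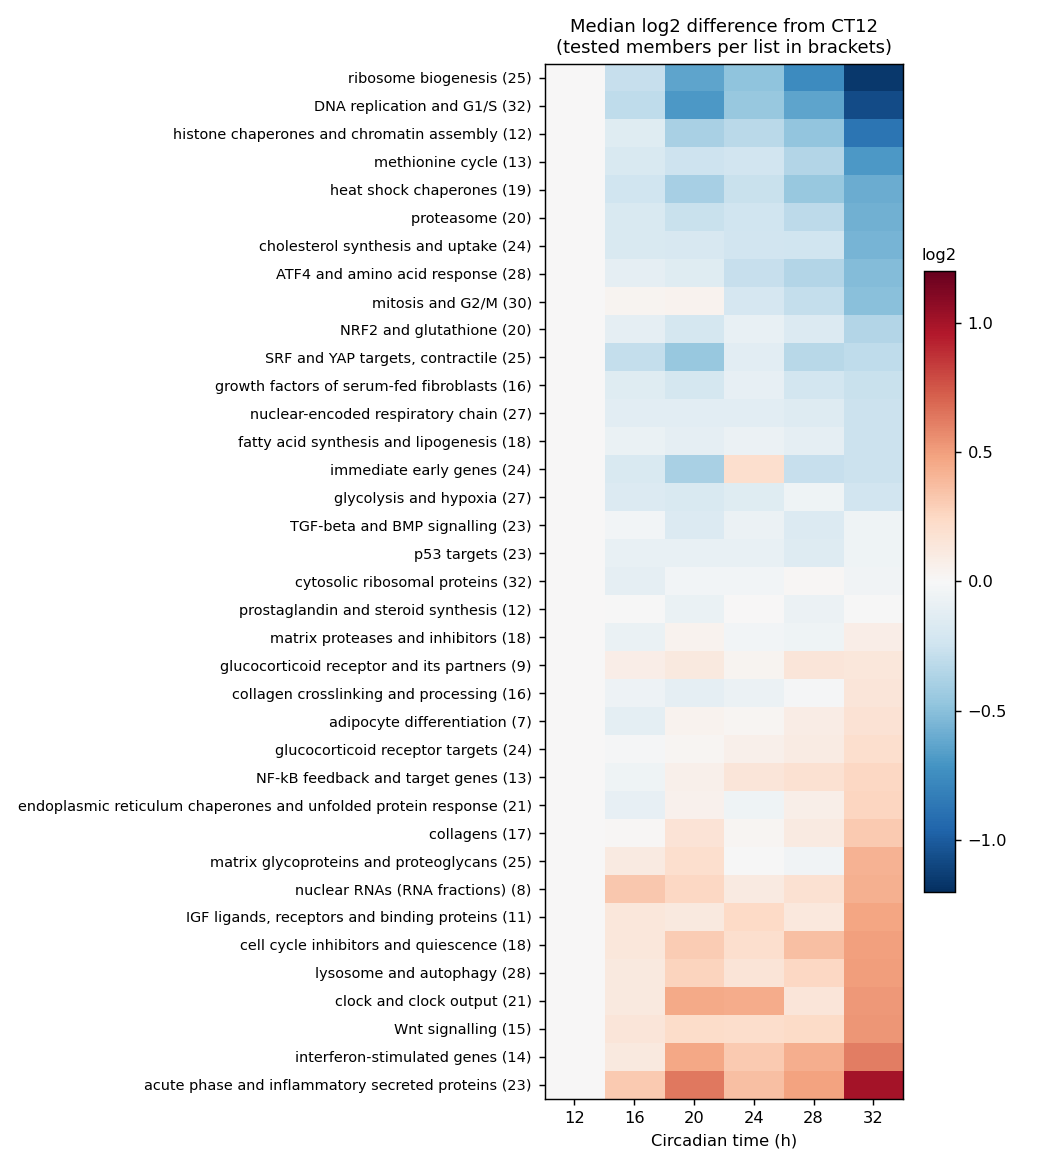
Median log2 difference from CT12 over the tested members of each list, at 6 circadian times (columns, h) in WT fibroblasts; blue is lower and red higher than CT12, and the number of tested members is in brackets. Ribosome biogenesis reaches −1.16 and acute phase proteins 1.00 at CT32; both are paler at CT24 than at CT20, and immediate early genes are red only at CT24.

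Genes of contraction and of the immediate early response were more often lower than higher, and several had higher means at CT24 than at CT20. On the SRF and YAP target list 17 of 25 genes were lower and 4 higher at CT32, with 7 higher under both other scalings. Cyr61, a secreted matricellular YAP target, was at 43.9, 42.1 and 41.3 TPM at CT32 and 109, 113 and 112 TPM at CT12 (log2 change -1.47 ± 0.056 (SE), adjusted p = 2.4e-11), yet at 139.9, 139 and 130.2 TPM at CT24, above every library of both ends. Its relative Ctgf ran 66.3, 42.1, 23.8, 47.9, 32 and 21.6 TPM from CT12 to CT32 and stayed between the ends. Of 24 immediate early genes 13 were lower and 5 higher, and 12 had an intermediate time beyond both ends, or 11 without CT20. Over all genes 32.1% were lower and 33.7% higher, and 5.66% had a time beyond both ends, or 4.46% without CT20. Egr1, a zinc finger factor induced by serum, averaged 54.5, 49.7, 27.5, 129, 32.5 and 24.9 TPM from CT12 to CT32. In Egr1, as in Cyr61, the CT24 mean stood above those of both ends. Fosl1, an AP-1 subunit, was at 13.7, 14.2 and 13.3 TPM at CT32 and 48.2, 50.9 and 49.8 TPM at CT12 (log2 change -1.88 ± 0.072 (SE), adjusted p = 2.54e-11), with 15.8 TPM at CT20 and 28.4 TPM at CT24. Growth factor genes were lower in 9 and higher in 5 of 16: Lif, Hbegf and Ereg fell by 1.48, 1.07 and 0.99. Id2, a target of BMP signalling, averaged 16.4 ± 1.15 TPM at CT32 and 47.3 ± 1.71 TPM at CT12.

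Among the rising groups, secreted acute phase and inflammatory proteins had the largest median, 1.00 on the log2 scale, with 17 of 23 higher and 4 lower; with no filter on low values the same numbers were called of 28 (median 0.66). C1ra, a protease of the complement cascade, was at 356, 323 and 344 TPM at CT32 and 120.1, 112 and 123 TPM at CT12 (log2 change 1.42 ± 0.067 (SE), adjusted p = 1.75e-10). C3, the central complement protein, averaged 689 TPM at CT32 and 267 TPM at CT12, and the serum amyloid gene Saa3 averaged 5717 TPM at CT32 and 1423 TPM at CT12. Cxcl12, a chemokine made by stromal cells, was at 1916, 1719 and 1813 TPM at CT32 and 792, 728 and 774 TPM at CT12, and Cxcl5 was at 61.2, 72.7 and 69.2 TPM at CT32 and 23.2, 24.1 and 25.5 TPM at CT12. In C1ra, Cxcl12 and Cxcl5 every CT32 library was above every CT12 library, but the ends did not overlap in 75% of all genes tested. The 4 lower members included the monocyte chemokines Ccl2 and Ccl7 (log2 changes -1.08 and -1.05), beside Csf1 (-0.70) and Ptx3 (-1.29). Chemokine genes thus stood on both sides. Interferon-stimulated genes were higher in 12 of 14 and lower in 0 (median 0.62), or in 15 of 22 with no filter on low values (median 0.39), and Stat2, a subunit of the interferon-activated factor, was at 35, 31.9 and 34 TPM at CT32 and 13.4, 12.2 and 13.1 TPM at CT12. Several of these genes are near the detection limit: Irf7 averaged 2.61 TPM at CT32 and 0.927 TPM at CT12 and Ifit1 1.95 TPM at CT32 and 0.968 TPM at CT12, and among the 7 genes whose mean reached 5 TPM there were 6 higher ones. NF-kB feedback genes were higher in 9 and lower in 2 of 13, by smaller amounts (median 0.25), against 33.7% higher and 32.1% lower over all genes. Cd14, the macrophage marker detected here, averaged 35.4 TPM at CT32 and 26.9 TPM at CT12.

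Matrix genes shifted in both directions with more higher than lower, where 33.7% of all genes were higher and 32.1% lower. Collagens were higher in 12 and lower in 2 of 17, and matrix glycoproteins and proteoglycans in 14 and 7 of 25, the lower ones numbering 3 under both other scalings. Col6a3, of the beaded filament collagen, was at 31.2, 26.5 and 28.9 TPM at CT32 and 9.66, 9.83 and 10.1 TPM at CT12 and ran in order. Dcn (decorin, a proteoglycan that binds collagen) was at 1797, 1734 and 1899 TPM at CT32 and 669.9, 675 and 718 TPM at CT12 (log2 change 1.30 ± 0.057 (SE), adjusted p = 9.65e-11), with 1418 TPM at CT20 and 1024 TPM at CT24. These genes were higher in every CT32 library than in any CT12 library, but the ends did not overlap in 75% of all genes tested. Thbs1 (thrombospondin 1) went the other way, at 87.5, 89.9 and 94 TPM at CT32 and 168, 185 and 189.8 TPM at CT12. Lox, the enzyme that crosslinks collagen, averaged 2272 ± 79.6 TPM at CT32 and 1166 ± 32.8 TPM at CT12 (log2 change 0.86 ± 0.036 (SE), adjusted p = 6.11e-11), whereas the lysyl hydroxylase Plod2 fell by 0.39 on the log2 scale. Of 16 crosslinking genes 6 were higher and 7 lower, but 9 and 3 with the values as deposited and 8 and 3 with quantile normalization, so this list has no direction that holds across scalings. The gelatinase Mmp2 averaged 788 ± 39.2 TPM at CT32 and 337 ± 8.91 TPM at CT12, and the urokinase receptor Plaur 13 ± 0.848 TPM at CT32 and 36.2 ± 2.36 TPM at CT12. Among fibroblast identity genes, 8 of 15 were higher and 2 lower, against the same 33.7% higher and 32.1% lower over all genes. Pdgfra, a receptor for platelet-derived growth factor, was at 143, 135 and 141 TPM at CT32 and 51.4, 50.3 and 55 TPM at CT12.

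Lysosomal, Wnt and insulin-like growth factor genes were more often higher than lower, with positive medians. Over all genes 33.7% were higher and 32.1% lower. Lysosome and autophagy genes were higher in 21 and lower in 2 of 28 (median 0.50). Lamp2 of the lysosomal membrane was at 419, 400.2 and 419 TPM at CT32 and 243, 251 and 255 TPM at CT12. The cathepsin gene Ctsf changed most on this list, at 16 ± 0.922 TPM at CT32 and 3.89 ± 0.238 TPM at CT12. Wnt signalling genes were higher in 12 and lower in 1 of 15: the receptor Fzd7 averaged 78.3 ± 3.14 TPM at CT32 and 44.3 ± 0.906 TPM at CT12, the nuclear factor Tcf7 11.9 ± 0.363 TPM at CT32 and 4.97 ± 0.325 TPM at CT12, and the secreted inhibitor Sfrp2 7.88 ± 1.26 TPM at CT32 and 1.26 ± 0.211 TPM at CT12. Tcf7 was in order. Of 11 insulin-like growth factor genes 8 were higher and 2 lower; the binding protein gene Igfbp4 was in order at 119.7, 139, 168, 176, 221 and 338 TPM from CT12 to CT32, while the ligand Igf1 was low throughout (0.893 TPM at CT32 and 1.72 TPM at CT12). Txnip, an arrestin-like protein that limits glucose uptake, was at 282, 266 and 279.6 TPM at CT32 and 91.4, 85.7 and 93.7 TPM at CT12 (log2 change 1.5 ± 0.055 (SE), adjusted p = 1.66e-11). Txnip, too, was lower at CT24 than at CT20 (202 TPM at CT20 and 148 TPM at CT24). Endoplasmic reticulum chaperone and unfolded protein genes were higher in 14 and lower in 2 of 21, with Hspa5 (BiP) at 741, 785 and 790.3 TPM at CT32 and 449, 452 and 457 TPM at CT12, and 10 of them had an intermediate time beyond both ends, or 9 without CT20, against 5.66% of all genes, or 4.46% without CT20. The nuclear RNA Neat1 averaged 667 ± 26.6 TPM at CT32 and 278 ± 12.9 TPM at CT12; Malat1 was not called.

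**Figure D4:**
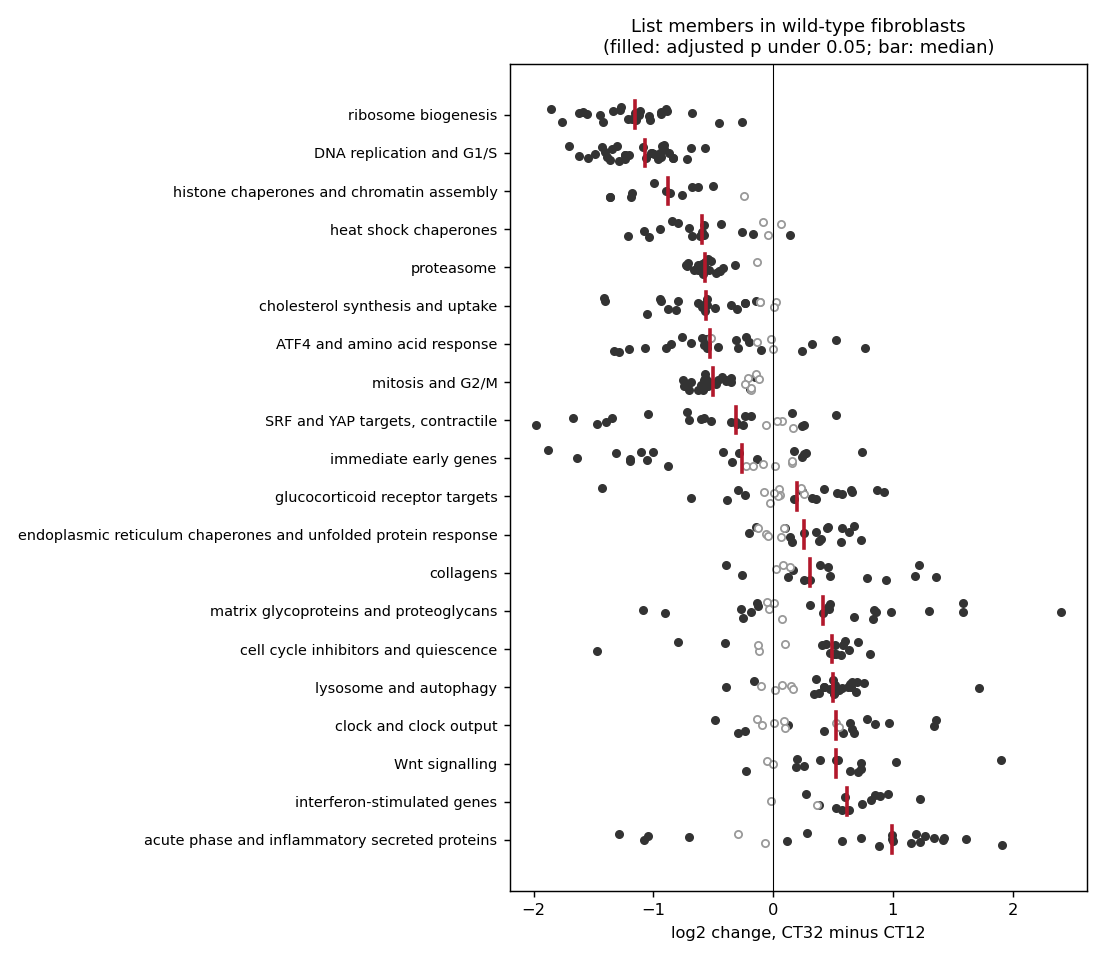
Log2 change of each tested member of 20 lists, CT32 minus CT12, in WT fibroblasts; filled points have an adjusted p under 0.05, open points do not, and red bars are medians. Every member of the ribosome biogenesis and DNA replication lists lies left of 0, and most lysosome, Wnt and interferon-stimulated genes lie right of it.

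Genes of the glucocorticoid pathway gave no common direction. Nr3c1, the receptor, averaged 66.1 TPM at CT32 and 56.1 TPM at CT12 (log2 change 0.14). Its chaperones fell: Fkbp4 averaged 153 ± 6.02 TPM at CT32 and 278 ± 9.42 TPM at CT12, and Hsp90aa1 averaged 529 ± 29.2 TPM at CT32 and 1042 ± 36 TPM at CT12. Hsd11b1, the enzyme that regenerates active glucocorticoid inside cells (chr1:193221634-193264075), had the largest rise on this list, at 16, 14.2 and 14.4 TPM at CT32 and 2.02, 1.46 and 1.89 TPM at CT12 (log2 change 2.44 ± 0.12 (SE), adjusted p = 2.55e-10). Its means ran 1.79, 3.07, 6.4, 5.28, 8.47 and 14.9 TPM from CT12 to CT32, again with a dip at CT24. Of 24 receptor targets 11 were higher and 5 lower, against 33.7% higher and 32.1% lower over all genes. Sgk1, a kinase induced by glucocorticoids, was at 153, 154 and 163 TPM at CT32 and 395, 392 and 398 TPM at CT12 (log2 change -1.43 ± 0.059 (SE), adjusted p = 4.7e-11), while Angptl4 averaged 9.3 TPM at CT32 and 4.15 TPM at CT12 and Klf9 16.9 TPM at CT32 and 10.6 TPM at CT12. Fkbp5, Tsc22d3, Mt1 and Mt2, which respond to the receptor in many cells, were not called, with log2 changes of 0.046, -0.076, 0.054 and 0.039. No library precedes CT12, so any earlier response to the pulse lies outside these data.

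Clock genes mostly did not run between the ends. Of 21 clock and clock output genes 11 were higher and 3 lower at CT32, against 33.7% higher and 32.1% lower over all genes. None of these 14 clock genes had all intermediate means between the ends. In 16 of the 21 an intermediate time lay beyond both ends by the test, or in 13 without CT20, against 5.66% of all genes, or 4.46% without CT20. Dbp, an output factor driven directly by the clock, was at 3.64, 3.13 and 2.9 TPM at CT32 and 0.473, 0.61 and 0.748 TPM at CT12 (log2 change 1.34 ± 0.10 (SE), adjusted p = 2.33e-08), but at 15.4, 17.7 and 14.3 TPM at CT20. Tef, of the same family, averaged 9.1, 18.8, 57.3, 61.5, 30.3 and 20.0 TPM from CT12 to CT32. The repressor Per2 averaged 0.242, 0.514, 3.25, 6.6, 2.81 and 1.29 TPM and peaked at CT24, and Cry1 averaged 4.34, 2.49, 5.28, 14.9, 14.2 and 7.48 TPM and peaked at CT24 and CT28. Nr1d1, which encodes REV-ERB alpha, averaged 6.88, 17.8, 32.3, 13.9, 6.02 and 7.92 TPM and its ends were not called apart (log2 change 0.09, adjusted p = 0.282). The activators Arntl and Npas2 had their lowest values between the ends: Arntl averaged 18.2, 16, 7.35, 5.94, 13.6 and 16.5 TPM and Npas2 2.03, 2.75, 1.59, 0.932, 1.58 and 3.96 TPM. Hlf, the third member of the family of Dbp and Tef, was the exception among the outputs, at 7.2, 13.7, 21, 19.2, 21.5 and 21.4 TPM with no time beyond both ends.

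An E-box stood in 20.8% of 24 promoters matched to 16 of the 21 clock genes, against 7.15% of all promoters. The share is not particular to clock genes, with 22.7% in p53 targets and 32.1% in lysosome genes, while proteasome genes had 0%. Tef (chr15:81802423-81802722, plus strand) is shown with its match.
Tef: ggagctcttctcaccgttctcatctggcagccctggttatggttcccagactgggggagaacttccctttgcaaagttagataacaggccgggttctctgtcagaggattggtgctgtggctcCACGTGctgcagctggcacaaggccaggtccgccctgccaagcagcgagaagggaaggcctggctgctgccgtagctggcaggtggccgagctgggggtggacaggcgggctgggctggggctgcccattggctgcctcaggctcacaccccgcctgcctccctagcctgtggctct

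Over all genes, 734 (5.66%) had an intermediate time beyond both ends, 412 above them and 337 below. By time the numbers above and below were 80 and 142 at CT16, 296 and 182 at CT20, 76 and 93 at CT24, and 59 and 45 at CT28. Without CT20 the number was 575 (4.46%). The 17 skeletal muscle markers are among those above at CT20, and 12 of them averaged under 1 TPM at the ends. Without CT20 only 6 of the 17 were tested. The rest passed the filter through CT20, which sets their direction. Only 239 of the 734 were also called between CT32 and CT12. Genes called between the ends whose means went outside them included Aldh3a1, an aldehyde dehydrogenase, which averaged 4.56, 6.72, 8.83, 16.9, 20.8 and 15 TPM from CT12 to CT32, and the protease inhibitor gene Serpina3n, at 105, 169.8, 249, 138, 122 and 226 TPM with maxima at CT20 and CT32. Some in this class rest on uneven libraries: Usp1 was at 11.3, 5.09 and 16.8 TPM at CT32 and 25.7, 29.8 and 31.9 TPM at CT12, and Rpl26 at 231, 276 and 208 TPM at CT32 and 637, 444 and 552 TPM at CT12 with 424, 1073 and 435 TPM at CT16.

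The same 2 times were compared in KO fibroblasts. There 2426 genes were higher (17.8%) and 2437 lower (17.9%) at CT32 than at CT12, 35.7% of 13603 tested. The 2 changes were compared directly in a fit over 36 libraries: the WT minus KO difference was called in 47.5% of genes (2954 higher in WT, 21.7%, and 3509 lower in WT, 25.8%; 3632 and 2806 with the values as deposited). Of the WT calls, 1513 of 4365 higher genes and 1686 of 4160 lower genes were called in the same direction in KO cells (34.7% and 40.5% of the WT calls, 65.3% and 71.2% of the KO calls among genes tested in both), and 334 and 271 were called in the opposite direction. All 32 replication genes and all 25 ribosome biogenesis genes differed by this test. In KO cells 25 and 21 of them were still lower at CT32, with medians of -0.17 and -0.28. Mcm2 was at 96.5, 99.4 and 101 TPM at CT32 and 111, 106 and 107 TPM at CT12 in KO cells, and the WT minus KO difference of its log2 change was -1.23 ± 0.042 (SE, adjusted p = 1e-17). For Ccnd1 the difference was -1.28 ± 0.047 (adjusted p = 2.39e-17).

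Cholesterol genes and endoplasmic reticulum chaperones ran in opposite directions in the WT and KO cultures. Cholesterol genes were lower at CT32 in 20 of 24 in WT cells, against 23 higher in KO cells (median 0.52), and 23 of the 24 differed by the direct test. Over all genes 47.5% differed by that test. In KO cells 17.8% of all genes were higher and 17.9% lower, and in WT cells 33.7% were higher and 32.1% lower. Idi1, an isoprenoid isomerase of this pathway, was at 13.4, 14.5 and 15.5 TPM at CT32 and 35.2, 37.9 and 38.6 TPM at CT12 in WT cells, against 156, 139.8 and 141 TPM at CT32 and 79.8, 89.7 and 87.5 TPM at CT12 in KO cells (difference -2.14 ± 0.093 SE, adjusted p = 4.59e-16). Endoplasmic reticulum chaperones were lower at CT32 in 17 of 21 in KO cells (median -0.56), and 20 differed. Hspa5 was at 735, 747 and 769.5 TPM at CT32 and 1450.3, 1485 and 1503 TPM at CT12 in KO cells, a difference of 1.68 ± 0.048 (SE, adjusted p = 2.31e-19) between the WT and KO log2 changes. Manf, a secreted chaperone-associated factor, gave a difference of 1.56 ± 0.055 (adjusted p = 1.1e-17). Lox was at 62, 60.3 and 59.3 TPM at CT32 and 81.4, 83.8 and 83.9 TPM at CT12 in KO cells, against 2291, 2185 and 2341 TPM at CT32 and 1147, 1148 and 1204 TPM at CT12 in WT cells; these levels come from tables that were made separately. Genotype and cell line cannot be told apart in this comparison.

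The DMSO fibroblasts gave a separate culture with the same pulse, sampled at CT24 and CT12 and deposited as FPKM, fragments scaled to gene length and library size. Of 10621 genes tested, 1664 were higher (15.7%) and 1882 lower (17.7%) at CT24 than at CT12, 33.4% in all; with the values as deposited the split was 1327 and 2275. Of the WT genes tested there, 1434 of 3640 higher and 1701 of 3830 lower were called in the same direction (39.4% and 44.4% of the WT calls, 87% and 91.4% of the DMSO calls), and 32 and 23 in the opposite direction. The counts moved by over 1.5 times without any of 5 libraries: 1893 genes were called without replicate 1 and 5653 without replicate 3 of CT24, and 1352, 1403 and 1904 without replicates 1, 2 and 3 of CT12. Replicate 2 of CT24 stood apart for Ahcy, which was at 28.1, 13.7 and 32 FPKM at CT24 and 37.9, 38.4 and 33.3 FPKM at CT12. Replication genes were lower in 31 of 32 (median -0.98) and ribosome biogenesis genes in 23 of 25 (median -0.90).

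Single genes can be followed in that culture. Mcm3 was at 31.1, 23.5 and 38 FPKM at CT24 and 79.3, 74.7 and 72.6 FPKM at CT12 in DMSO cells. Tagln was at 33.7, 22.7 and 51.9 FPKM at CT24 and 149, 146 and 131 FPKM at CT12, and Ogn was at 114, 168 and 96.1 FPKM at CT24 and 40.0, 42.9 and 50.3 FPKM at CT12. In these 3 genes the direction was that of the WT change. Cholesterol genes were lower in 16 and higher in 0 of 23. Over all genes tested in DMSO cells 17.7% were lower and 15.7% higher. Of endoplasmic reticulum chaperones 7 of 21 were lower and 1 higher (median -0.23, where the WT median at CT24 relative to CT12 was -0.055), and Hspa5 was at 141, 133 and 172 FPKM at CT24 and 209, 203 and 196 FPKM at CT12 (log2 change -0.38, adjusted p = 0.0464). Acute phase genes were higher in 4 and lower in 7 of 20 (median -0.021, against 0.36 in WT at CT24). The interval was 12 h here and 20 h in the WT comparison, and the phases differ, so no test was made of the WT against the DMSO change.

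**Figure D5:**
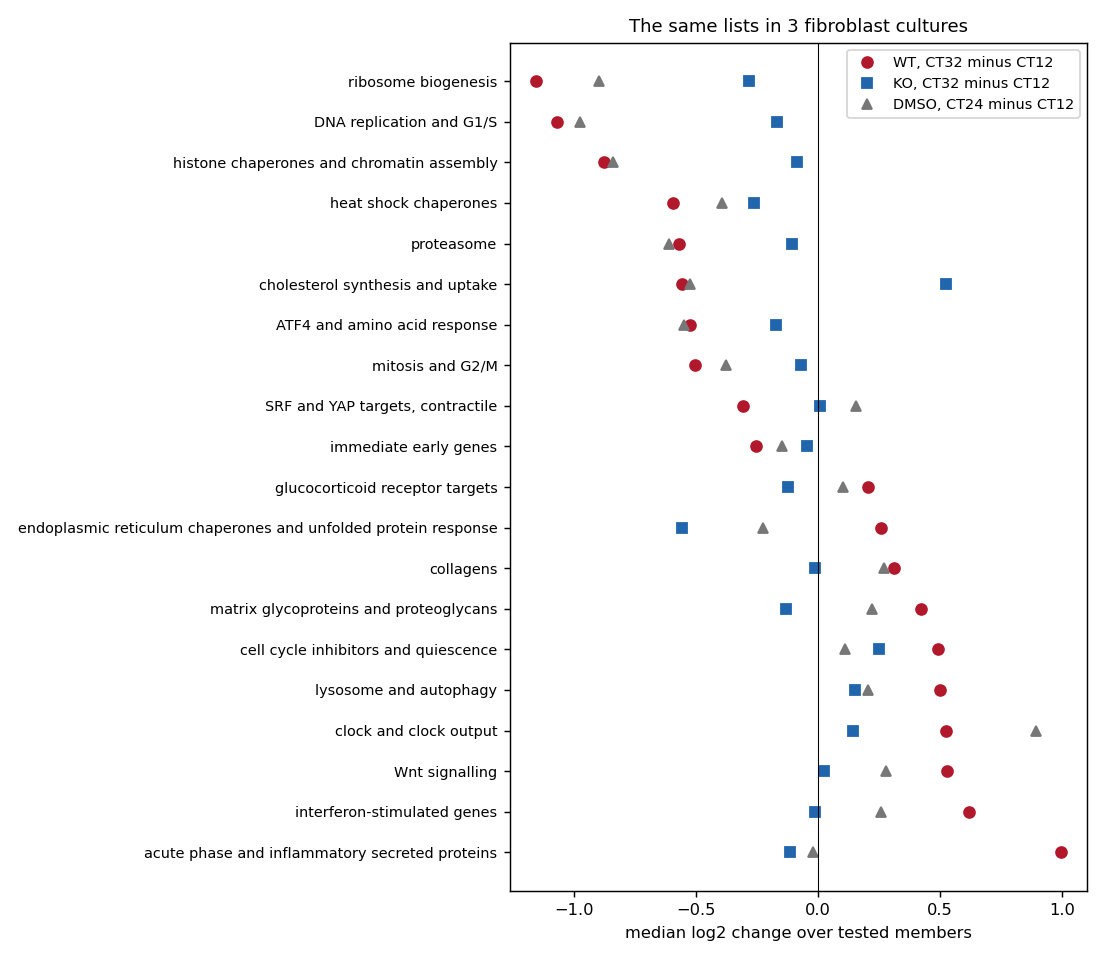
Median log2 change over the tested members of 20 lists, CT32 minus CT12 in WT (red circles) and KO (blue squares) fibroblasts and CT24 minus CT12 in DMSO fibroblasts (grey triangles). Cholesterol genes lie at −0.56 in WT, 0.52 in KO and −0.53 in DMSO cells, and ribosome biogenesis genes lie left of 0 in all of them.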

How the data were processed

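Per the labels' protocols, TRIzol was used to take RNA from the mouse embryonic fibroblasts, and the kit was TruSeq RNA Library Prep v2. The submitters' processing notes list the build mm10 and the tools TopHat2 2.1.1, Cufflinks 2.2.1, bcl2fastq 2.18.0.12 and Trimmomatic 0.36; which annotation was used, and whether strand was, is not given in the sources used here. The WT and KO tables were taken as deposited TPM because each library sums to about the same total (970075 to 980677 in WT), and the DMSO table is FPKM, deposited by the authors with sums of 258374 to 366414. Read counts are not given, so depth is unknown and no counting interval was computed.

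Libraries were scaled within each table by median ratios, and a gene was tested where 3 or more libraries reached a value of 1, with limma 3.58.1 (trend) in R 4.3.3 on log2(value + 1). That scale understates changes of low genes. The WT fit used 18 libraries in 6 groups of 3, the WT minus KO difference 36 libraries and the DMSO fit 6, with Benjamini-Hochberg adjustment over all genes tested and a threshold of 0.05. Printed levels are the deposited values, and log2 changes come from the fit. A gene was in order when all 5 steps between scaled means had the sign of its change, and beyond both ends when 1 intermediate time passed the test against CT12 and against CT32 in the same direction. The fit was tested on simulated data with straight-line changes in a small set of genes. Those data held no turn at CT24 and no broad change, so they do not test the rule for times beyond both ends. Members, lists and tests were chosen with earlier results of these data known, so no list is independent evidence. Of 919 list entries 897 matched by name and 5 by an older name. Genes were named by rule: up to 8 in order and 6 outside the ends in each direction by largest change with a mean of 5 or more, up to 4 called members of a list by smallest p, the clock list, and 4 in each direction for the WT minus KO difference, though some genes that the rule names are not reported here; the remaining list members in the text were picked for their role after their values were seen. Alternatives were other pseudocounts, scalings and filters, a replicate block, and left-out libraries and times; the alternatives without high-Malat1 libraries and without CT24, and those without CT20 for lists and for counts other than the order and the slope, were added after the data were seen. Deviations of same-numbered libraries correlated weakly on average (mean r 0.023 over 45 pairs, 5 of them over 0.1). Libraries of different number gave a mean r of -0.011 over 90 pairs, 4 of them over 0.1. Replicate numbers were therefore not taken as pairs, though the WT libraries of high Malat1 were all replicate 2. Promoters and gene coordinates are from RefSeq, GRCm38.p6, and motifs were searched in the 300 bases of each.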

Additional observations from a re-analysis of the deposited data

Results flagged for a closer look

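The change between CT32 and CT12 differed between WT and KO fibroblasts in 6463 genes by the direct test, which is what drew these results out. The WT minus KO differences of the log2 change were 1.68 for Hspa5, 1.34 for Lox, 1.56 for Manf and 1.90 for Txnip, each with a higher value in WT. They were -1.23 for Mcm2, -1.28 for Ccnd1 and -1.38 for Mcm3, each with a deeper fall in WT. In WT cells the log2 changes were 0.67, 0.86, 0.40 and 1.5 for the first 4 genes, against -1.0, -0.48, -1.16 and -0.40 in KO cells. For Mcm2, Ccnd1 and Mcm3 they were -1.39, -1.47 and -1.49 in WT cells, against -0.15, -0.19 and -0.11 in KO cells. No group held more than 3 libraries, so single libraries were not tested as outliers.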

How the results depend on the processing

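The number of genes called between CT32 and CT12 was 7365 to 8885 under other pseudocounts, scalings, filters and left-out libraries, and 616 with a log2 change of at least 1 required. The number in order depended on its rule. It was 4740 when a step against the change of under 0.1 was allowed, 3791 without CT20 and 3128 without CT24. Leaving out a time leaves fewer steps to meet, so a rise is set in part by the rule. In 4000 genes the only step against the change fell between CT20 and CT24. Leaving out single libraries gave 7837 to 8089 calls between CT32 and CT12, 801 to 863 genes in order, 3089 to 3736 calls between CT28 and CT16, 6801 to 7706 slopes, 545 to 852 genes beyond both ends and 6021 to 6244 WT minus KO differences. The DMSO count ranged from 1352 to 5653 and was 1944 with a replicate block; the cause was not tested. The replicate block gave 8532, 836, 3830, 7423, 701 and 6434 in the other comparisons, and the same-number correlation of CT32 and CT12 was −0.079, −0.072 and −0.04. Without the libraries of high Malat1 the counts were 8155, 645, 3216, 7070, 635, 6135 and 3418. Over 15 alternatives the 192 named genes with a call kept direction and call in 2846 values, lost the call in 20 and reversed in 2: with quantile normalization Mbp was at −0.072 and Snhg1 at 0.0298, neither called. Scaling moved the median of all genes to 0.12 as deposited and 0.016 with quantile normalization, against 0.036. Read depth is unknown, and 3 libraries per group limit the precision.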

Other observations

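Redox genes moved in both directions. On the NRF2 and glutathione list 13 of 20 genes were lower at CT32 than at CT12 and 5 higher. The shares over all genes were 32.1% lower and 33.7% higher. Gsr, glutathione reductase, averaged 26.9 ± 1.32 TPM at CT32 and 49.6 ± 2.16 TPM at CT12 (SD, n = 3 each), and Txnrd1, thioredoxin reductase, averaged 136 ± 3.47 TPM at CT32 and 206 ± 6.86 TPM at CT12. The glutathione transferases Mgst1 and Gstm1 were among the higher, at 57 ± 2.01 and 182 ± 0.741 TPM at CT32 and 19.6 ± 1.77 and 83.2 ± 2.5 TPM at CT12. Prostaglandin genes also split: Ptgs2, the inducible cyclooxygenase, averaged 50.8 ± 5.85 TPM at CT32 and 149.5 ± 6.86 TPM at CT12, and the prostaglandin F receptor Ptgfr averaged 36.4 ± 2.27 TPM at CT32 and 19.1 ± 0.999 TPM at CT12.

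Targets of p53 were higher in 6 and lower in 8 of 23, close to the 33.7% higher and 32.1% lower over all genes, and in 8 and 7 with quantile normalization. Sesn1 and Trp53inp1, which are also known FOXO or stress targets, averaged 102 ± 5.58 and 53.3 ± 1.88 TPM at CT32 and 43.9 ± 2.04 and 22 ± 1 TPM at CT12, whereas Aen and Plk2 averaged 35.4 ± 0.27 and 91 ± 2.92 TPM at CT32 and 62.7 ± 0.979 and 156 ± 5.02 TPM at CT12. Of 23 TGF-beta and BMP genes 9 were higher and 10 lower, or 10 and 10 with the values as deposited: the BMP-responsive Id1 and Id3 changed by -1.36 and -0.75 on the log2 scale while the ligand gene Bmp4 changed by 0.97.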
